A study of Mus musculus with 4 samples.

Results

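The regions described here are the topologically associating domains (TADs) of at least 2 Mb in mouse haematopoietic stem cells (HSCs). A TAD is a block of chromatin that folds mainly on itself and touches the blocks beside it less. Members were all TADs with an end minus start of 2000000 bp or more on chromosomes 1 to 19 in either of the authors' 2 deposited TAD lists. They numbered 375, of 4628 TADs in the series and 4395 on chromosomes 1 to 19. The fetal list contributed 195 and the adult list 180. Members were chosen by TAD length, as called in either list, so their number, lengths and share of the genome are a description and were not tested.

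The 2 lists came from Hi-C, which joins fragments of cross-linked chromatin that are near in space and sequences the junctions. Per the labels, 2 samples were HSCs from fetal liver at embryonic day 14.5 and 2 were bone marrow HSCs of adults 6 to 8 weeks old, all of the strain B6129SF1. All groups were sorted by the same surface phenotype, Lin-Sca1+cKit+CD135-, and no agent, transgene or deletion is named. The sort names no marker beyond these, and the lists hold no expression values, so the sorted cells could not be checked against further markers. Both samples of a cell type point to 1 list, called the fetal and the adult list below. No value therefore has a replicate error, a difference between the lists could not be set against a spread between replicates, and the depth of neither list is known.

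TADs form in mammals largely because the cohesin complex extrudes loops of chromatin until it meets the DNA-binding factor CTCF, and their edges, the boundaries, limit which enhancers meet which promoters. A very long TAD is a stretch of chromosome with no boundary called inside it. In mammals such stretches often hold few genes, or a few developmental genes with distant enhancers. The genes inside the members and the sequence at their ends were not analysed here, because the lists are in build mm9 and the gene and promoter tables at hand are of another build.

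Long TADs were a small share of TADs by number and a larger share by length. In the fetal list they were 195 of 2204 autosomal TADs, or 8.85% (95% exact Clopper-Pearson interval 7.69 to 10.1), and held 527.2 of 2181 Mb in TADs, or 24.2%. In the adult list they were 180 of 2191, or 8.22% (7.10 to 9.44), and held 485.6 of 2107 Mb, or 23%. Such intervals, here and below, cover counting error only and take each TAD as independent. The intervals of the 2 lists overlapped.

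The lengths of the members were alike in the lists. The fetal members ran from 2000 to 4690 kb, with a median of 2530 kb and quartiles of 2215 and 3030 kb. The adult members ran from 2000 to 4670 kb, with a median of 2520 kb and quartiles of 2200 and 3035 kb. Among fetal members 89 were under 2.5 Mb, 56 were of 2.5 to under 3 Mb, 44 of 3 to under 4 Mb and 6 of 4 Mb or more. The adult numbers were 86, 47, 40 and 7.

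The limit of 2 Mb cut through a continuous range of lengths. In the fetal list 23 TADs were of 2 to 2.1 Mb and 32 of 1.9 to under 2 Mb, and in the adult list 27 and 32. Just inside the limit lay fetal TADs of 2000 kb on chromosomes 4 and 16 and adult TADs of 2000 kb on chromosome 9 and 2010 kb on chromosome 2. Just outside lay fetal TADs of 1980 kb on chromosomes 2 and 9 and adult TADs of 1980 and 1990 kb on chromosome 2. The fetal TAD of 1980 kb on chromosome 2 (chr2:135815001-137795000) and the adult TAD of 1990 kb (chr2:135805001-137795000) are the same place in both lists, and neither is a member.

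The 3 longest fetal members lay at the same places as long adult members. On chromosome 3 the longest fetal TAD, chr3:146625001-151315000, was 4690 kb, and the longest adult TAD, chr3:146625001-151295000, was 4670 kb. On chromosome 13 the fetal TAD chr13:85295001-89755000 was 4460 kb and the adult TAD chr13:85295001-89775000 was 4480 kb. On chromosome 8 both lists held chr8:4795001-9205000, of 4410 kb, with the same coordinates. These pairs are the 3 longest fetal TADs and 3 of the 4 longest adult TADs. The remaining one, chr11:11895001-16365000, of 4470 kb in the adult list, lay where the fetal list called almost nothing. The fetal TADs ranked next, chr3:3005001-7235000 of 4230 kb and chr5:111785001-115975000 of 4190 kb, were both split in the adult list.

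Every autosome held long TADs in both lists. Counts ran from 4 to 17 per chromosome in the fetal list and from 3 to 14 in the adult list, with a median of 10 in each. Chromosome 6 held the most in each list, 17 fetal and 14 adult. By the sum of the lists chromosomes 2 and 7 followed, each with 13 in either list, although chromosomes 1 and 3 had 14 in the fetal list. By the same sum chromosome 19 held the fewest, 5 and 3, then chromosome 15 with 4 and 5, and chromosome 17 with 6 and 7. Chromosome 15 held the fewest of the fetal list alone. Chromosomes differ in size, so the length in long TADs was also taken as a share of the length in all TADs of the chromosome.

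By that share chromosome 8 stood highest, with 33.8% of its fetal and 30.2% of its adult TAD length in long TADs. Chromosome 6 was next in the fetal list, at 31.7%, and had 27.7% in the adult list, where chromosome 7 was next at 28.7%. Chromosome 15 was lowest over both lists, at 13.3% and 16%, and chromosome 19 was next over both lists, at 20.3% and 12.7%. The chromosome with the highest count was thus not the one with the highest share.

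The fetal list held more long TADs than the adult list on 9 chromosomes, fewer on 5 and as many on 5. The largest gap was on chromosome 12, with 10 fetal and 6 adult members covering 26.1% and 17.3% of the TAD length. All TADs of chromosome 12 held 104.36 Mb in the fetal and 94.95 Mb in the adult list. Of its fetal members 3 lay where the adult list called almost no TAD, and no adult member lay so in the fetal list. In the other direction chromosome 10 had 10 fetal and 13 adult members, covering 20.5% and 27.0%. A single list per cell type gives no spread to set these gaps against.

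**Figure D1:**
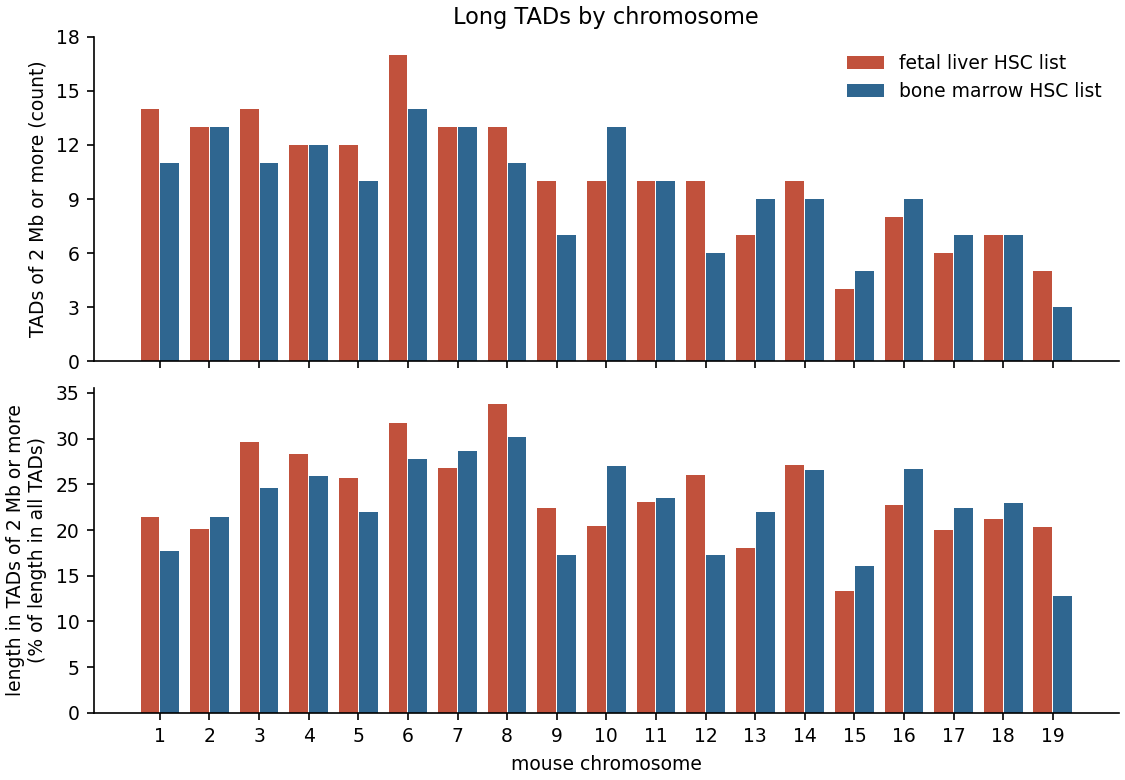
Long TADs on each mouse autosome in the fetal liver HSC list and the bone marrow HSC list, as bars: the upper panel counts TADs of 2 Mb or more, the lower panel gives the length in them as a percentage of the length in all TADs of the chromosome. Chromosome 6 has the most members, 17 fetal and 14 adult, and chromosome 8 the highest share of length, 33.8% and 30.2%.

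Mouse autosomes have their centromere at the start of the coordinates, so position was expressed as the percentage of the span from the first to the last TAD of a chromosome. In the fetal list the share of TADs that were long was 9% in the first 20% of the span (6.42 to 12.2) and 7.87% in the last (5.63 to 10.6), with 9.45%, 9.15% and 8.88% between. In the adult list it was 11.2% in the first 20% of the span (8.35 to 14.7), 8.24%, 8.19% and 7.76% in the middle ones, and 6.15% in the last (4.22 to 8.62). All intervals within a list overlapped. Long TADs held 29.6% of the adult TAD length in the first 20% of the span and 17.4% in the last, against 24.6% and 20.8% in the fetal list.

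The first TAD of a chromosome was long on 3 of 19 chromosomes in each list, chromosomes 3, 7 and 14 in the fetal list and 3, 7 and 9 in the adult list. The last TAD was long on chromosomes 5 and 16 in the fetal list and on chromosome 16 in the adult list.

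**Figure D2:**
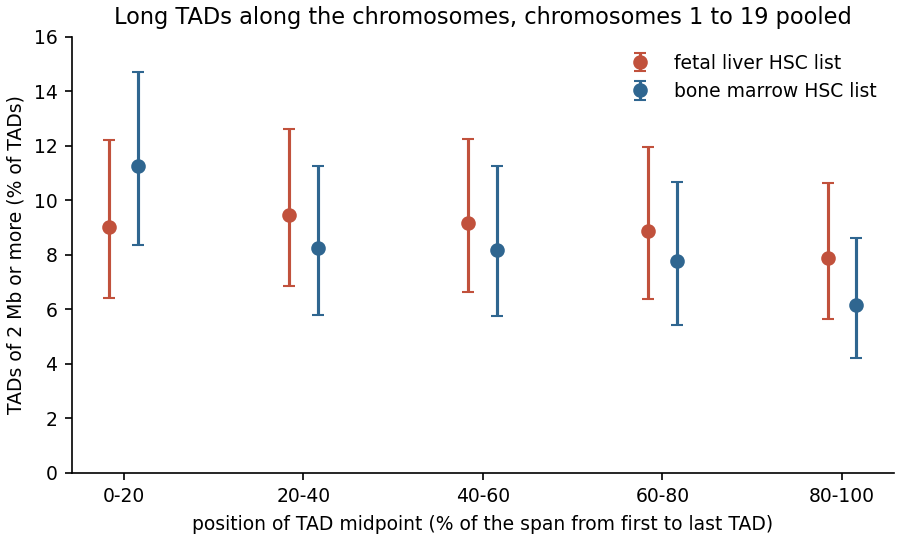
Share of TADs that were 2 Mb or more, in percent, by successive 20% steps of the span from first to last TAD, chromosomes 1 to 19 pooled, with points for the 2 lists and bars for 95% exact Clopper-Pearson intervals. The fetal points lie between 7.87% and 9.45%, the adult points between 11.2% in the first 20% of the span and 6.15% in the last, and the intervals overlap.

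Most long TADs had no long neighbour. A neighbour was a TAD that shared a boundary position with the member. In the fetal list 152 members had no long neighbour, 38 had 1 and 5 had 2, and in the adult list 144, 30 and 6. Of the fetal members' 375 neighbours 48 were themselves long, or 12.8% (9.59 to 16.6), against 8.77% of the neighbours of any autosomal TAD (7.94 to 9.66). Of the adult members' 346 neighbours 42 were long, or 12.1% (8.89 to 16.1), against 8.16% (7.36 to 9.03). Each boundary between adjoining long TADs was counted from both sides, so these counts are not independent and their intervals are too narrow. The median neighbour of a fetal member was 850 kb long and that of an adult member 800 kb, against 790 and 770 kb for neighbours of any TAD. The gap between these shares changed with the length limit. With TADs of 1.5 Mb or more the share of long neighbours was 17.2% for fetal and 16.5% for adult TADs, where 17.4% and 15.9% of all TADs were that long. With TADs of 2.5 Mb or more it was 7.77% and 7.69%, where 4.81% and 4.29% of all TADs were that long.

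Chains of adjoining long TADs were few and mostly pairs. The fetal list had 16 pairs, 1 chain of 3 and 2 chains of 4, and the adult list 11 pairs, 2 chains of 3 and 2 chains of 4. The longest chain lay on chromosome 5. In the fetal list it spanned chr5:75575001-86425000, or 10.9 Mb, as TADs of 2200, 3210, 2950 and 2490 kb. In the adult list it spanned chr5:77755001-88865000, or 11.1 Mb, as TADs of 3190, 2960, 2520 and 2440 kb.

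The middle of the chromosome 5 chain was shared and its ends were not. The fetal TADs of 3210, 2950 and 2490 kb faced the adult TADs of 3190, 2960 and 2520 kb, with edges within 40 kb. At the left end the place of the fetal TAD of 2200 kb was taken by adult TADs of 1360, 460 and 360 kb. At the right end the place of the adult TAD of 2440 kb was taken by fetal TADs of 830 and 1640 kb. Each list thus extended the chain on a different side.

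The other chain of 4 lay on chromosome 11. In the fetal list it ran over chr11:21475001-31545000, or 10.1 Mb, with TADs of 2400, 3080, 2070 and 2520 kb. In the adult list it ran over chr11:21475001-31065000, or 9.59 Mb, with TADs of 2420, 3030, 2100 and 2040 kb, followed by one of 480 kb that ended where the fetal chain ended. A chain of 3 on chromosome 3 matched closely, at chr3:117285001-125515000 in the fetal list (3550, 2290 and 2390 kb) and chr3:117225001-125505000 in the adult list (3610, 2290 and 2380 kb). The adult chain of 3 on chromosome 4, chr4:21935001-28655000 with TADs of 2200, 2430 and 2090 kb, had no such counterpart, since the fetal list called no TAD over most of the first 2 of them.

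Long TADs also stood about as often as other TADs beside stretches without a TAD. Such a stretch adjoined 10 of 195 fetal members, or 5.13% (2.49 to 9.23), against 4.26% of all fetal TADs, and 9 of 180 adult members, or 5.00% (2.31 to 9.28), against 4.75% of all adult TADs.

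What the other list held at each member was sorted into 5 outcomes. A TAD was kept when it shared at least 80% of its own length and of the partner length with 1 TAD called in the other cell type. It was dropped when TADs of the other list covered less than 20% of it. It was split when it was neither, the other list had a boundary no more than 40 kb from each end and 1 or more others inside. It was merged when 1 TAD of the other list held at least 80% of it and was larger. The remaining TADs were called redrawn. Kept rests on overlap alone, so a kept TAD can have an unmatched end or a boundary of the other list inside it, and some members did. The list that chose a member does not fix its outcome in the other list, apart from the effect of length on each definition.

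Of the 195 fetal members 128 were kept in the adult list, 25 split, 15 merged, 21 dropped and 6 redrawn, where 73.8%, 5.22%, 15.9%, 2.22% and 2.86% of all autosomal fetal TADs had these outcomes. The kept share was 65.6% (58.5 to 72.3), against 73.8% of all 2204 autosomal fetal TADs. Of the 180 adult members 130 were kept in the fetal list, 30 split, 6 merged, 6 dropped and 8 redrawn. Their kept share was 72.2% (65.1 to 78.6), against 74.3% of all 2191 autosomal adult TADs, of which 5.11% were split, 16.5% merged, 0.593% dropped and 3.51% redrawn. Fetal TADs of 1 to under 2 Mb were kept in 74.0% of cases (70.3 to 77.5), and adult ones in 77.5% (73.9 to 80.9).

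**Figure D3:**
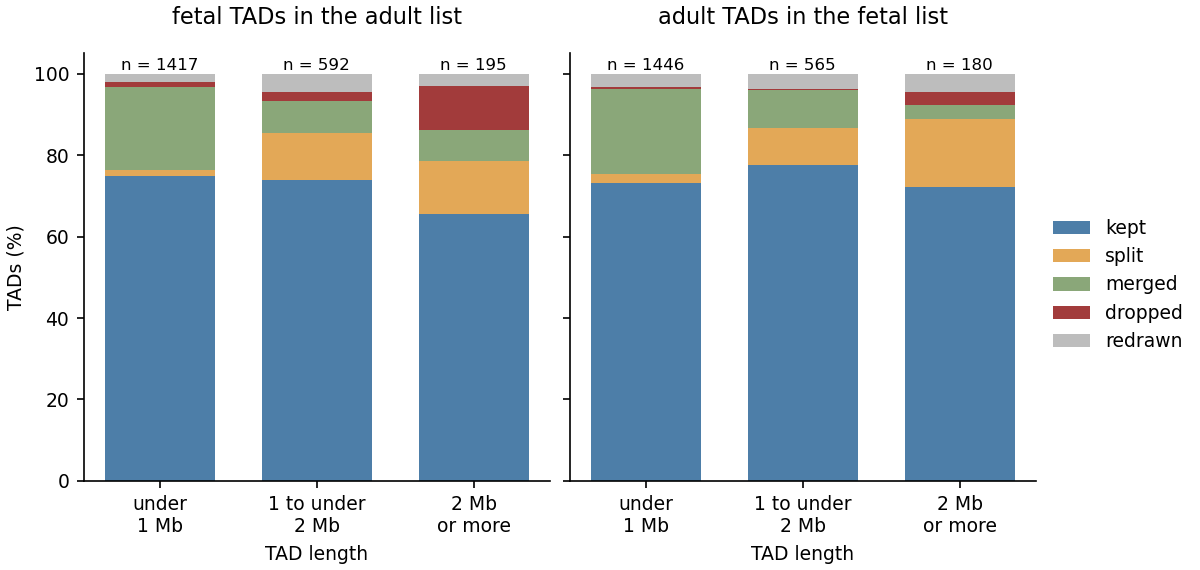
Outcome of TADs of 3 length classes in the other list, as percentages of the TADs in each class, with the number of TADs above each bar. Of the fetal TADs of 2 Mb or more 65.6% were kept and 10.8% dropped, and of the adult ones 72.2% and 3.33%.

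The ends of long TADs met a boundary of the other list about as often as those of other TADs. Of 390 ends of fetal members 316 had an adult boundary at most 40 kb away, or 81.0% (76.8 to 84.8), against 83.8% over all fetal TADs. Of 360 ends of adult members 308 had a fetal boundary at most 40 kb away, or 85.6% (81.5 to 89.0), against 83.9%. The median distance was 10 kb, which is 1 step of the grid on which nearly all coordinates lie. Both ends matched in 130 fetal members, or 66.7%, against 71.2% of all fetal TADs, and in 131 adult members, or 72.8%, against 70.8%.

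Kept members were mostly long in both lists. The fetal and adult lists shared 125 pairs in which both TADs were 2 Mb or more. A further 3 fetal members had a kept adult counterpart of 1880 to 1960 kb, and 5 adult members a kept fetal counterpart of 1770 to 1970 kb. Of the 125 pairs 16 had the same start and end, or 12.8% of pairs. The share among members was 8.21% of fetal and 8.89% of adult members, against 9.07% of all fetal and 9.13% of all adult TADs. In 54 pairs, or 43.2%, both edges agreed within 10 kb. Over all autosomal TADs of either list the median distance from an end to a boundary of the other list was also 10 kb, which is another measure. Agreement of both edges was not taken for shorter pairs, so the 43.2% has no base to be set against.

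A pair needs an overlap of at least 80% of both lengths, which caps the difference in length within it. That difference was at most 20 kb in 75 of the 125 pairs and over 200 kb in 16. The fetal TAD was the longer in 61 pairs, the adult TAD in 38, and 26 were equal, with a median difference of 0 kb. Among the 16 pairs over 200 kb apart, each list held the longer TAD in 8. Differences in length were not taken for shorter pairs, so these counts have no base either. The longest identical TADs after that of chromosome 8 were chr5:54555001-58055000, of 3500 kb, and chr3:75815001-78735000, of 2920 kb. On chromosome 10 a whole chain of 2, chr10:34145001-38835000 with TADs of 2550 and 2140 kb, was identical in both lists.

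**Figure D4:**
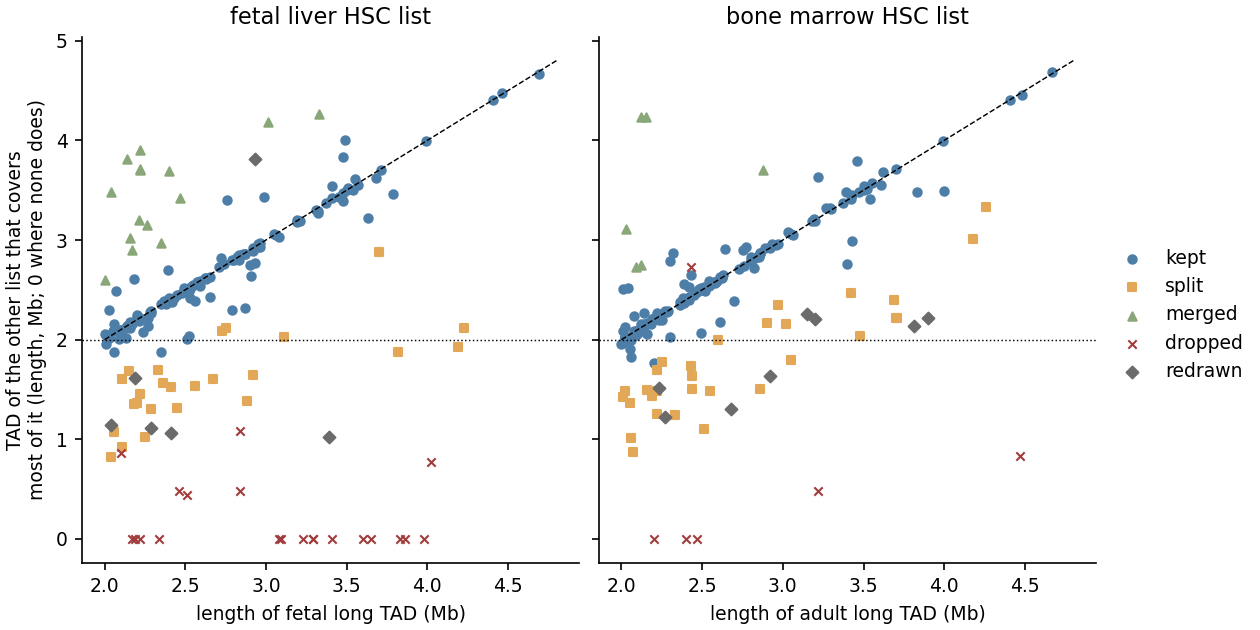
Length of each long TAD in Mb against the length of the TAD of the other list that covers most of it, for the 195 fetal members (left) and 180 adult members (right), with 0 where no TAD overlaps. Markers give the outcome, the dashed line is equal length and the dotted line 2 Mb: kept pairs lie near the dashed line, split and most redrawn members below it, merged members above it, and 15 dropped fetal members at 0.

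A split divided the long TAD at boundaries that were called in 1 list alone, while the outer edges stayed. The share split was 12.8% of fetal members (8.47 to 18.3), against 5.22% of all fetal TADs, and 16.7% of adult members (11.5 to 22.9), against 5.11% of all adult TADs. Among TADs of 1 to under 2 Mb it was 11.5% in the fetal list (9.03 to 14.3) and 9.20% in the adult list (6.95 to 11.9). Split members were only some of those with an inner boundary. A boundary of the other list, more than 40 kb from both ends, lay inside 28.7% of fetal members (22.5 to 35.6). The adult share was 31.1% (24.4 to 38.4), against 14.2% of all fetal and 12.9% of all adult TADs. Of the kept members 22 fetal and 18 adult ones held such a boundary. A longer TAD has more room for an inner boundary, and the part this plays in these higher shares was not tested. Among TADs at least 95% covered by the other list, boundaries lying more than 40 kb from both ends numbered 1.52 per 10 Mb inside fetal members, against 2.05 inside fetal TADs of 1 to under 2 Mb and 1.60 inside those under 1 Mb. The adult values were 1.54, 1.80 and 1.64. By these values inner boundaries were no denser per length in the members covered, 171 fetal and 174 adult, than in shorter TADs. The densities carry no interval, and the difference was not tested.

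Most splits gave 2 parts. This held for 15 of 25 fetal and 24 of 30 adult split members, and 9 and 5 gave 3 parts. Where a single boundary divided the TAD, the longer part took a median of 65.7% of it in fetal members (range 50.1 to 79.1) and 67.6% in adult members (53.2 to 79.6). Parts of 80% or more count as kept, which sets the upper end of both ranges. A part of 2 Mb or more, itself a member of the other list, remained in 5 fetal and 11 adult split members. The median longest part was 1560 kb for fetal and 1670 kb for adult members.

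The 3 longest split fetal members lay on chromosomes 3, 5 and 7. The TAD chr3:3005001-7235000, the first on its chromosome, became adult TADs of 2120 and 2150 kb, both of them members. The TAD chr5:111785001-115975000 became adult TADs of 1930, 1360 and 900 kb. The TAD chr7:100275001-104095000, of 3820 kb, became adult TADs of 1100, 1880, 340 and 500 kb, the only fetal member with 4 parts. Its outer edges were at the same coordinates in both lists.

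The 3 longest split adult members lay on chromosomes 2, 1 and 18. The TAD chr2:39255001-43515000, of 4260 kb, was cut in the fetal list into 3330 and 950 kb. The TAD chr1:141395001-145575000, of 4180 kb, was cut into 1190 and 3010 kb. The TAD chr18:85165001-88875000, of 3710 kb, was cut into 1510 and 2220 kb. In each of the 3 the larger fetal part was itself a long TAD, and it counts among the fetal members merged in the adult list.

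Merged members lay inside a longer TAD of the other list, which in turn was split for 11 of the 15 fetal and all 6 adult merged members and redrawn for the other 4 fetal ones. Merging took in 15 fetal members, or 7.69% (4.37 to 12.4), against 15.9% of all fetal TADs, and 6 adult members, or 3.33% (1.23 to 7.11), against 16.5% of all adult TADs. Among TADs of 1 to under 2 Mb the merged share was 7.94% in the fetal list (5.89 to 10.4) and 9.20% in the adult list (6.95 to 11.9). A TAD must lie inside a longer one to be merged, and few TADs are longer than a member. The adult TADs that held fetal members had a median of 3480 kb and added a median of 990 kb. The fetal TADs that held adult members had a median of 3405 kb and added 950 kb. After the merged fetal members named above on chromosomes 2 and 1, the next longest was chr5:122565001-125035000, of 2470 kb, inside an adult TAD of 3420 kb. The longest merged adult member, chr5:48815001-51695000 of 2880 kb, lay inside a fetal TAD of 3700 kb, and next came both adult parts of the split fetal TAD on chromosome 3.

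Dropped members lay where the other list called no TAD or covered little of them. Of the fetal members 21 were dropped, or 10.8% (6.79 to 16), against 2.22% of all fetal TADs, and of the adult members 6, or 3.33% (1.23 to 7.11), against 0.593% of all adult TADs. The share was 2.03% (1.05 to 3.51) for fetal TADs of 1 to under 2 Mb and 1.13% (0.647 to 1.83) for those under 1 Mb. Among fetal members it was 6.74% (2.51 to 14.1) below 2.5 Mb, 5.36% (1.12 to 14.9) at 2.5 to under 3 Mb, and 24.0% (13.1 to 38.2) at 3 Mb or more. Among adult members it was 4.65% (1.28 to 11.5), 0 of 47 (0 to 7.55%) and 4.26% (0.52 to 14.5). Among all dropped TADs the members made up 21 of 49 in the fetal list and 64.0 of 92.8 Mb, and 6 of 13 and 17.2 of 21.1 Mb in the adult list.

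The dropped fetal members lay in 14 of the 53 autosomal stretches that the adult list left without a TAD, and 7 of those stretches held more than 1 of them. They lay on chromosomes 1, 2, 3, 4, 7, 8, 12, 14 and 19, with 4 on chromosome 3 and 3 each on chromosomes 1, 4 and 12. No adult TAD touched 15 of the 21. In 16 of them 1 end lay within 40 kb of an adult boundary, and in 5 neither end did.

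The 5 longest dropped fetal members were chr1:109515001-113535000 of 4020 kb, chr14:111205001-115185000 of 3980 kb, chr12:93105001-96965000 of 3860 kb, chr4:70315001-74145000 of 3830 kb and chr1:47275001-50925000 of 3650 kb. The adult stretches without a TAD around them measured 10610, 8870, 6300, 4330 and 4310 kb. The fetal list filled 61.5% of the first and all of the other 4. On chromosome 12 an adult stretch of 6300 kb was filled in the fetal list by the chain of 3860 and 2460 kb, both dropped. On chromosome 3 the chain of 3290 and 3600 kb, chr3:41835001-48725000, lay inside an adult stretch of 8480 kb, and the chain of 3080 and 2100 kb from 69785001 to 74965000 stood over one of 5170 kb.

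All 6 dropped adult members can be named. Apart from 1 beyond the last fetal TAD, they lay in 4 of the 48 autosomal stretches that the fetal list left without a TAD. The longest was chr11:11895001-16365000, of 4470 kb, over a fetal stretch without a TAD of 5150 kb. On chromosome 14 the TAD chr14:52955001-56175000, of 3220 kb, stood over a fetal stretch of 3200 kb whose edges were each 10 kb from its own, so both its ends matched although its inside was not called. On chromosome 13 the TAD chr13:91045001-93515000 was 2470 kb. On chromosome 4 the TADs chr4:21935001-24135000 and chr4:24135001-26565000, of 2200 and 2430 kb, filled a fetal stretch of 4610 kb together. On chromosome 9 the TAD chr9:119855001-122255000, of 2400 kb, lay beyond the last fetal TAD.

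Redrawn members numbered 6 in the fetal list, or 3.08%, against 2.86% of all fetal TADs, and 8 in the adult list, or 4.44%, against 3.51% of all adult TADs. They matched the other list at 1 end in 5 and 7 cases and at neither end in 1 each. The longest fetal ones were chr6:78465001-81855000 of 3390 kb, of which adult TADs covered 56.6%, chr9:15125001-18055000 of 2930 kb and chr11:32225001-34635000 of 2410 kb. The longest adult ones were chr12:66355001-70255000 of 3900 kb, chr9:16365001-20175000 of 3810 kb and chr7:91995001-95195000 of 3200 kb. On chromosome 9 the members of both lists were interlocked. The fetal TADs of 2930 and 2140 kb shared the boundary at 18055000, and the adult TAD of 3810 kb lay across that position.

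**Figure D5:**
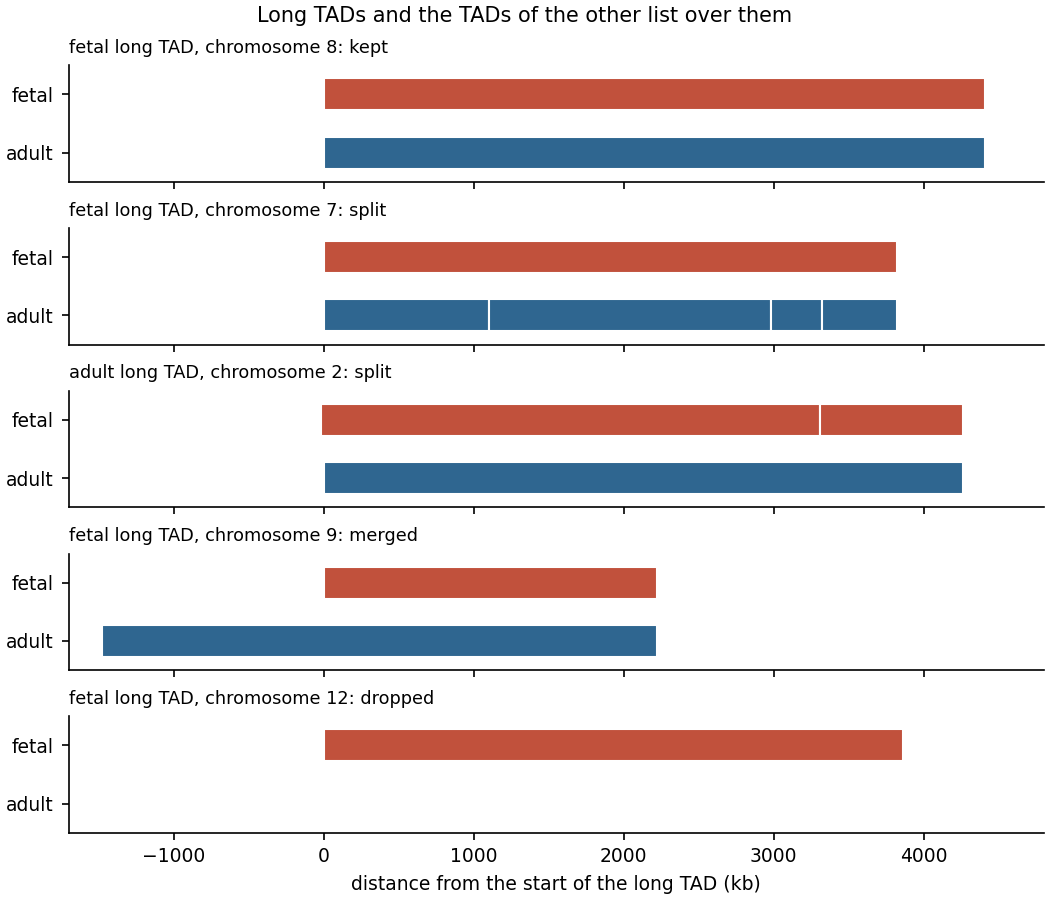
Examples of the outcomes, with TADs of each list as bars along the distance in kb from the start of the long TAD named above each panel, and only TADs of the other list that overlap it by more than 50 kb. The chromosome 8 TAD of 4410 kb is identical in both lists, the chromosome 7 TAD is in 4 adult parts, the adult chromosome 2 TAD is in 2 fetal parts, the chromosome 9 TAD of 2220 kb lies in an adult TAD of 3700 kb, and over the chromosome 12 TAD of 3860 kb the adult list has none.

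The lists were also compared by place. Long TADs of either list that overlapped at all were joined into 214 loci. Of these 137, or 64.0%, held long TADs of both lists, 46 of the fetal list alone and 31 of the adult list alone. A short overlap sufficed, such as the 20 kb shared by the fetal TAD chr19:7685001-9935000 and the adult TAD chr19:5025001-7705000. No such share was taken for TADs of other lengths to set beside the 64.0%. The 384.6 Mb in long TADs of both lists were 72.9% of the fetal and 79.2% of the adult length in long TADs. These shares of length were not taken for TADs of other lengths either. Of the 46 fetal members that no adult long TAD overlapped, 21 were dropped, 18 split, 5 redrawn and 2 kept with a counterpart under 2 Mb. Of the 31 adult members that no fetal long TAD overlapped, 18 were split, 5 dropped, 3 redrawn and 5 kept. Dropped members were 21 of the 46 fetal and 5 of the 31 adult ones. A dropped member is hardly covered by any TAD of the other list, so these counts largely repeat those of the dropped members above. No replicate lists were available to test the difference.

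Within the members, those of 2.5 to under 3 Mb were kept most often, at 46 of 56 fetal, or 82.1% (69.6 to 91.1), and 38 of 47 adult, or 80.9% (66.7 to 90.9). Below 2.5 Mb the shares were 58.4% (47.5 to 68.8) and 69.8% (58.9 to 79.2), and at 3 Mb or more 30 of 50 (45.2 to 73.6%) and 68.1% (52.9 to 80.9). Among these the intervals of fetal members below 2.5 Mb and of 2.5 to under 3 Mb did not overlap. By chromosome, 6 of 6 fetal and 7 of 7 adult members were kept on chromosome 17. On chromosome 9 the numbers were 3 of 10 and 4 of 7, and on chromosome 19 they were 1 of 5 and 1 of 3. A kept TAD of one list is mostly the partner of a kept TAD of the other, so these counts are not independent between the lists. Even taken as independent, both lists together gave wide intervals of the kept share. They ran from 75.3 to 100% on chromosome 17, 18.4 to 67.1% on chromosome 9 and 3.19 to 65.1% on chromosome 19. The kept share of all TADs was not taken by chromosome, so these counts have no base to be set against. Chromosome 9 had 4 of the 25 split fetal members and no dropped one, and chromosome 19 had 2 split and 2 dropped among its 5 fetal members. On chromosome 11, 7 of 10 fetal and 8 of 10 adult members were kept.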

How the data were processed

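The authors deposited 1 TAD list per cell type, each a start and an end in base pairs per TAD, with no score. HiC-Pro, GSNAP and build mm9 are named in the submitters' processing notes, with no versions or roles. The TAD caller, its settings, any pooling of samples and the depth were not given in the sources used here.

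Both lists were read with Python 3.11.15, and starts are printed 1-based. Boundaries were the distinct starts and ends. Exact Clopper-Pearson intervals (95%) came from scipy 1.17.1. No p-value was computed: each cell type has 1 list, and TADs are not replicates. Simulated TADs were built to meet each definition and stood apart from each other, and 250 of 250 were recovered. This checks the code only and not how well outcomes are called in these lists. Named regions were the 5 longest members of each list, the 3 longest of each outcome and the 3 longest chains. All dropped members were named where there were 10 or fewer, and otherwise the 5 longest. The 3 fullest and emptiest chromosomes and the 2 TADs on either side of 2 Mb were also named. Other regions were chosen after their values were seen. Members, definitions and rules were chosen with earlier results of these lists known. The alternatives were other length limits, tolerances, overlaps, neighbour rules and chromosome sets.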

Additional observations from a re-analysis of the deposited data

How the results depend on the processing

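A share counted as stable if the alternative fell within its 95% interval, and a number of members if it changed by less than 1.5 times. Of 64 alternative values 46 were stable and 18 moved. The limit sets the number of members: at 1.5 Mb the fetal list held 384 and the adult list 349, at 2.5 Mb 106 and 94. The kept share followed the overlap asked for: 84.1% of fetal and 93.9% of adult members at 50%, 58.5% and 63.9% at 90%. With a match of both ends to 1 TAD within 40 kb in its place it was 47.2% and 51.7%. Leaving out dropped TADs, chosen after the result was seen, gave a fetal kept share of 73.6%, which is higher by construction. All autosomal fetal TADs, with dropped ones left out too, were kept in 75.5% of cases. The adult shares without dropped TADs were 74.7% of members and 74.7% of all autosomal TADs. Ends matched in 72.6% of fetal and 76.1% of adult cases at 20 kb, and in 90% of adult cases at 100 kb. Long neighbours made up 17.2% and 16.5% at 1.5 Mb, and 7.77% and 7.69% at 2.5 Mb, where 4.81% and 4.29% of TADs were that long. The shares split and dropped stayed inside their intervals, which are wide for few TADs: at 1.5 Mb the dropped share was 7.03% of fetal and 1.72% of adult members, at 2.5 Mb 14.2% and 2.13%, and with ends matched at 20 kb the fetal split share was 8.72%. Leaving out each chromosome in turn, also chosen afterwards, gave 64.4 to 67.6% kept, 11.4 to 13.5% split and 9.39 to 11.8% dropped for fetal members, and 71.0 to 73.2%, 15.6 to 17.6% and 2.38 to 3.61% for adult members. No paired analysis was possible because each list stands for both samples of a cell type, which also leaves no replicate to omit. The unknown depth limits every comparison.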

Other observations

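Chromosome X was outside the rule. There the fetal list held 12 TADs of 2 Mb or more among 114, or 10.5% (95% exact interval 5.56 to 17.7), and the adult list 4 among 119, or 3.36% (0.923 to 8.38). They covered 27.1% of the fetal and 11.3% of the adult TAD length of the chromosome, and the median TAD measured 750 and 670 kb. All 4 adult ones were kept in the fetal list, with counterparts of 2690, 3000, 3810 and 2100 kb. Of the 12 fetal ones 6 were kept, 2 split, 2 dropped and 2 redrawn. The longest fetal one, from 126465001 to 130275000, was 3810 kb, and the adult one there was 3800 kb. Both dropped ones, from 58385001 to 61215000 and from 62975001 to 65575000, measured 2830 and 2600 kb, and no adult TAD touched them. The difference between the lists was not tested.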
